A study of Homo sapiens with 4 samples.

Results

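HCT116 cells derive from a human colorectal carcinoma, and the comparison described here asks what the histone deacetylase inhibitor MS-275 (entinostat) changed in the transcripts of HCT116 cells whose DNA replication was blocked by hydroxyurea. The array of cells treated for 24 h with 1 mM hydroxyurea and 2 µM MS-275 was set against the array of cells treated for 24 h with 1 mM hydroxyurea alone. These are 2 of the 4 arrays of the study. The other two, of untreated cells and of cells treated for 24 h with 2 µM MS-275 alone, give the difference with MS-275 without hydroxyurea, which shares no array with the main comparison. Every condition has 1 GeneChip Human Gene 2.0 ST array, so differences cannot be checked against replicates and are given without p-values. All values come from 1 cell line. Members of the comparison are the genes with a named transcript cluster (the set of probes that measures 1 transcript region), and for a gene with several clusters the brightest one was taken. Of 53617 clusters on the array, 16098 carried 1 gene symbol and covered 14884 genes. Of these, 7649 had a mean log2 intensity over the 4 arrays at or above the median of the named clusters, an intensity of 90.5, and the counts below refer to them.

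Histone deacetylases remove acetyl groups from lysine residues of histones and other proteins, and MS-275 inhibits the class I enzymes HDAC1, HDAC2 and HDAC3. Inhibitors of this kind raise histone acetylation and are known both to switch on genes that are silent in a tissue and to lower the transcription of highly active genes. Hydroxyurea blocks ribonucleotide reductase, which makes the building blocks of DNA, so that replication forks stall and checkpoint kinases and p53 are activated.

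Intensities are given on a linear scale and always in the order untreated, hydroxyurea, MS-275 and MS-275/hydroxyurea. A difference is the ratio of 2 intensities, or its log2, and a gene was counted as higher or lower where the ratio reached 1.5-fold. The array medians over the 7649 genes lay between 237 and 247. Named markers of colorectal epithelium had a summed intensity of 8303 on the hydroxyurea array and 7574 on the MS-275/hydroxyurea array. Single markers ran from 10.0 to 1805 and from 32.4 to 2053. Of the 14 markers 9 passed the filter, beside 7649 of all 14884 genes, so this share alone does not show epithelial identity. The filter takes the mean over all arrays, so passing it does not show signal on a given array. None of the 3 named fibroblast markers and none of the 6 named endothelial markers passed it. Of the 5 blood markers only CD68 passed, at 243 and 284, and of the 5 neural markers only MBP, at 119 and 89.8.

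With MS-275/hydroxyurea, 663 of 7649 genes (8.67%) were at least 1.5-fold higher than with hydroxyurea alone, and 414 (5.41%) were at least 1.5-fold lower. The high side was also the longer one. At least 2-fold higher were 171 genes and at least 2-fold lower were 71, and at 4-fold these numbers were 16 and 2. The median log2 difference over all genes was 0.00 with an SD of 0.43, and the middle 90% of the genes lay between -0.60 and 0.75. Without hydroxyurea, MS-275 went with 6.94% higher and 6.84% lower genes. Of the 663 higher genes, 371 were also at least 1.5-fold higher without hydroxyurea, which is 56.0% of them and 69.9% of the genes higher without it. Of the 414 lower genes, 223 were also lower without hydroxyurea, which is 53.9% of them and 42.6% of the genes lower without it. No gene passed 1.5-fold in opposite directions. The sign differed for 12 higher genes, which lay below 0 without hydroxyurea, and for 13 lower genes, which lay above 0.

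Dim signal bears on the size of these folds. On the hydroxyurea array, 119 of the 663 higher genes (17.9%) were below the intensity of the filter, so they passed it through their signal on other arrays. On the MS-275/hydroxyurea array, 47 of the 414 lower genes were below it. Different clusters of 1 gene give the only repeat measurement on these arrays. Of 183 genes with 2 or more clusters past the filter, 32 were left out after the data were seen, because the log2 differences of their 2 brightest clusters were equal within 1e-06. For the other 151 genes these differences lay a median of 0.11 apart, and 90% of them lay within 0.52. Of 23 such genes past 1.5-fold by the brightest cluster, 13 passed it by the second cluster as well and 22 had the same sign. The clusters share their RNA and their array and may share probes, so their agreement says nothing of the spread between cultures or arrays.

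**Figure D1:**
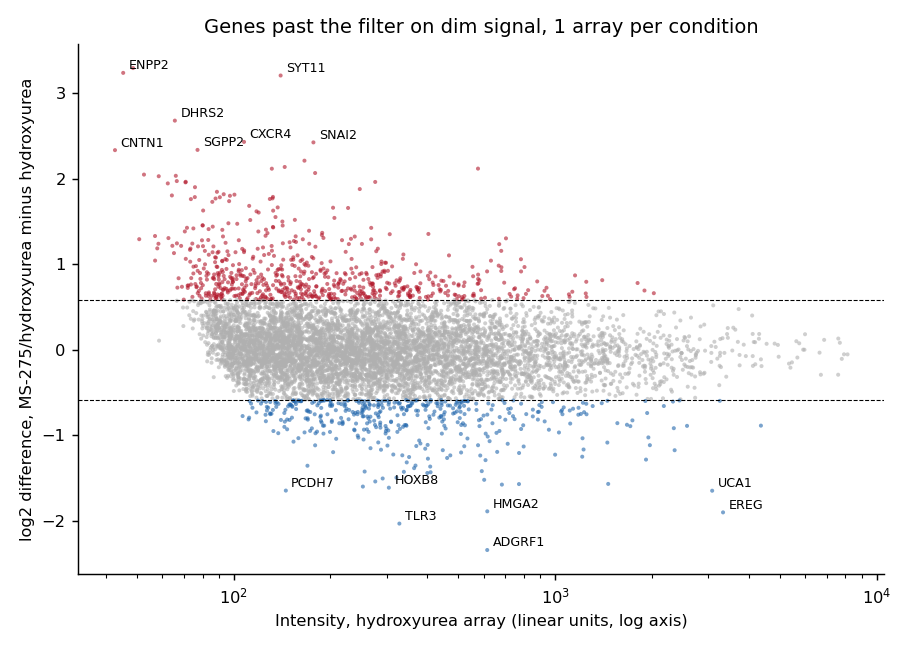
Each point is 1 of the 7649 genes, with its intensity on the hydroxyurea array on the horizontal log axis and its log2 difference between MS-275/hydroxyurea and hydroxyurea on the vertical axis. Red points (663) lie above and blue points (414) below the dashed lines at 1.5-fold, and the tallest differences, such as ENPP2 and CNTN1, sit at the dim end while the lowest genes, such as EREG and UCA1, include bright ones.

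The 15 highest genes, leaving out small RNAs and pseudogenes, lay between 3.92-fold and 9.41-fold above the hydroxyurea array. Their intensities ran from 42.7 to 179 with hydroxyurea and from 215 to 1289 with MS-275/hydroxyurea, and 8 of the 15 were below the intensity of the filter with hydroxyurea alone. All 15 were also at least 1.5-fold higher with MS-275 in the absence of hydroxyurea. Enzymes of lipid signalling were among them. ENPP2 encodes autotaxin, the secreted enzyme that makes lysophosphatidic acid, and had intensities of 38.1, 45.3, 268 and 426. It was 9.41-fold higher with MS-275/hydroxyurea than with hydroxyurea, and its dim signal on both arrays without MS-275 leaves the size of that fold uncertain. SGPP2, a phosphatase of sphingosine-1-phosphate, had intensities of 84.3, 77.2, 354 and 389 and was 5.04-fold higher. Both arrays with MS-275 were high for these genes, and both without it were low.

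Genes of neurons and of membrane traffic were also among the highest. SYT11, a synaptotagmin that acts in vesicle trafficking, had intensities of 72.2, 140.0, 567 and 1289. That is 9.21-fold with hydroxyurea and 7.85-fold without it. CNTN1, a neuronal adhesion molecule of the contactin family, had 44.5, 42.7, 217 and 215 and was 5.03-fold higher. The microtubule-associated protein gene MAP2 had 88.0, 131, 459.6 and 569 and was 4.33-fold higher. NCAM1, the neural cell adhesion molecule, had 52.7, 58.5, 218 and 238 and was 4.07-fold higher. In CNTN1 and NCAM1 the 2 arrays with MS-275 were nearly equal, whereas SYT11 was at its highest with both drugs. EFR3B, whose product helps to hold a phosphatidylinositol kinase at the plasma membrane, was 4.09-fold higher, at 59.4, 66.1, 249 and 270.1. DOCK4, an activator of small GTPases, was 3.92-fold higher, at 84.8, 66.5, 236 and 261.

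The other genes have varied roles. CXCR4, the receptor for the chemokine CXCL12, had intensities of 89.2, 108, 189 and 579. It was 5.38-fold higher with hydroxyurea present and 2.12-fold higher without it, the widest gap between these ratios among the 15 genes. SNAI2, a transcriptional repressor of epithelial-mesenchymal transition, had 65.7, 177, 540.0 and 949 and was 5.36-fold higher with and 8.22-fold higher without hydroxyurea. FN1, which encodes the matrix protein fibronectin, had 117, 179, 382 and 749 and was 4.18-fold higher. CD24, a surface glycoprotein, had 108, 166, 403 and 767, but its sequence is close to that of processed copies elsewhere in the genome, so its value is uncertain. PAG1, a membrane adaptor that recruits the kinase CSK, was 4.39-fold higher, at 66.6, 144, 366 and 633. For SNAI2, FN1, CD24 and PAG1 the order of the arrays was the same, with untreated lowest, then hydroxyurea, then MS-275, and MS-275/hydroxyurea highest. DHRS2, a short-chain dehydrogenase, followed this order too, at 49.1, 65.6, 218 and 419, and SSBP2, a single-stranded DNA-binding transcriptional cofactor, did not, at 68.0, 52.6, 235 and 217.

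The 15 lowest genes were between 2.82 and 5.06 times lower with MS-275/hydroxyurea, and they were brighter genes than the highest ones. The adhesion G protein-coupled receptor gene ADGRF1 had intensities of 919.6, 615, 171 and 122 and was 5.06 times lower. HMGA2, an architectural chromatin protein of embryonic and tumour cells, had 906, 615, 274 and 166 and was 3.70 times lower. For both genes each drug alone went with a lower intensity than in untreated cells, and the array with both was the lowest. EREG, the EGF receptor ligand epiregulin, had 3882, 3330, 1388 and 892 and was 3.73 times lower. LIF, a cytokine of the interleukin-6 family, had 317, 276, 110.1 and 94.9 and was 2.91 times lower. FOSL1, the AP-1 subunit FRA1, had 594, 772, 253 and 260.2 and was 2.97 times lower. The long non-coding RNA UCA1 had 2681, 3081, 1181 and 984 and was 3.13 times lower by its brightest cluster. Its second cluster gave a smaller log2 difference, -1.15 beside -1.65.

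Innate sensing and cell death genes were also among the lowest. TLR3, the endosomal receptor for double-stranded RNA, had intensities of 128, 328, 58.4 and 80.2. It was the highest on the hydroxyurea array and 4.09 times lower with MS-275/hydroxyurea, where it was below the intensity of the filter. MLKL, the pore-forming effector of necroptosis, had 225, 252, 93.0 and 83.3 and was 3.03 times lower. In a list of double-stranded RNA sensing and necroptosis that was added after these values were seen, CYLD, a deubiquitinase that favours cell death signalling, was 1.92-fold higher at 112, 128, 179.5 and 245, and the sensor gene RIGI and the adaptor genes MAVS and TICAM1 were at 0.80-fold, 0.93-fold and 0.86-fold. Other low genes were the protocadherin gene PCDH7 (3.13 times), the focal adhesion gene TRIP6 (2.98 times), the annexin gene ANXA3 (2.96 times), ARL14EPL (2.82 times), and HOXB8 and HOXB5, which are described below. Of the 15 genes, 14 were also at least 1.5-fold lower without hydroxyurea. The exception was FXYD3, a regulator of the sodium-potassium pump, which had 124, 291, 101 and 103. It was 2.84 times lower with hydroxyurea present and 1.23 times lower without it, since its intensity was high on the hydroxyurea array alone.

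**Figure D2:**
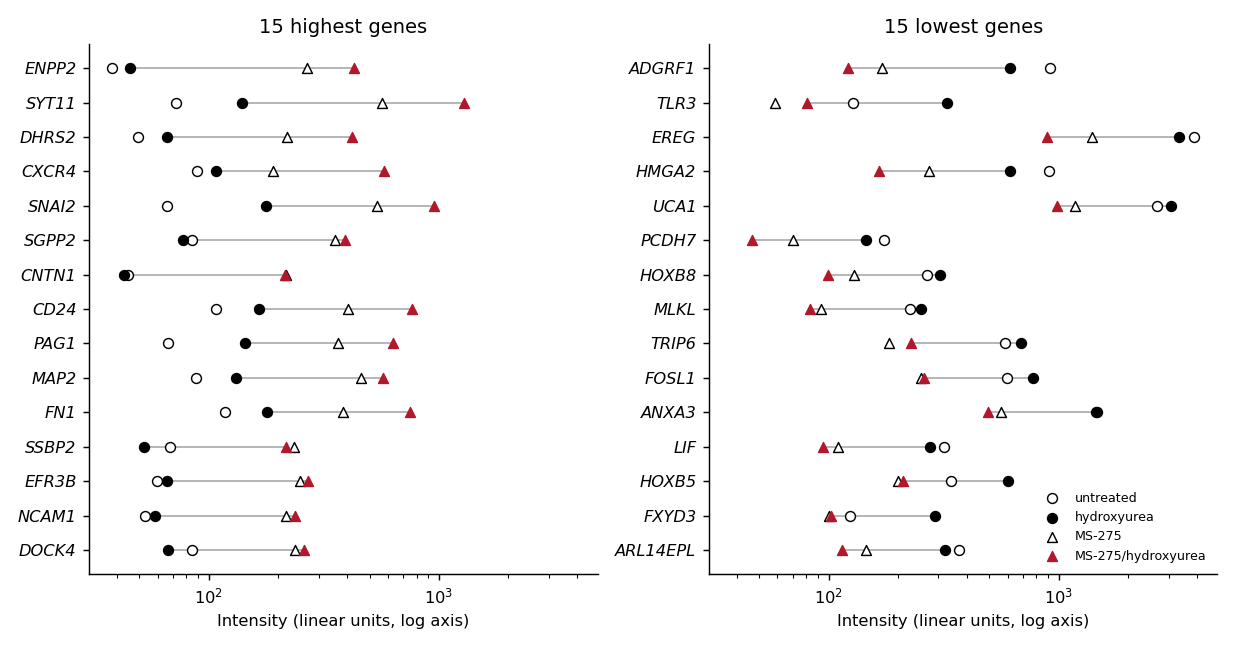
Intensity on a log axis of the 15 highest genes (left) and the 15 lowest genes (right), ordered by the ratio of MS-275/hydroxyurea to hydroxyurea, with 1 symbol per array and a grey line between the pair compared. On the left both triangles (MS-275 present) lie to the right of both circles in every gene, and on the right FXYD3 differs from its neighbours in having only the hydroxyurea array high.

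The promoters of 3 of these genes are shown because their sequences hold the motifs whose shares among the higher and lower genes are given further below. They are the 250 bases before the transcription start in RefSeq annotation of GRCh38.p14, with matches to the CCAAT box (CCAAT) and to the GC box (GGGCGG), on either strand, in capitals. CXCR4 (chr2:136118150-136118399, minus strand) held 3 GC boxes, of which 2 share a base. TLR3 (chr4:186068906-186069155, plus strand) held 1 GC box. EREG (chr4:74364895-74365144, plus strand) held 2 CCAAT boxes and no GC box. The G+C share of these sequences was 68.0%, 39.2% and 58.0%.
CXCR4: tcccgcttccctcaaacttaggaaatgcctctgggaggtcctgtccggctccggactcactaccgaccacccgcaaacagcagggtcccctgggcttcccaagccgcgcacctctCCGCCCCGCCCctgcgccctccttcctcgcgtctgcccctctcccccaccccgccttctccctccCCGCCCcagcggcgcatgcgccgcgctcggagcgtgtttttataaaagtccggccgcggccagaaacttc
TLR3: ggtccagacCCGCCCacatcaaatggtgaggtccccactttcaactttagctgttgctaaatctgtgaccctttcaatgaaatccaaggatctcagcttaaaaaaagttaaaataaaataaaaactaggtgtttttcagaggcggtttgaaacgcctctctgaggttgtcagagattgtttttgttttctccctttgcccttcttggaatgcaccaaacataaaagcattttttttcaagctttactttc
EREG: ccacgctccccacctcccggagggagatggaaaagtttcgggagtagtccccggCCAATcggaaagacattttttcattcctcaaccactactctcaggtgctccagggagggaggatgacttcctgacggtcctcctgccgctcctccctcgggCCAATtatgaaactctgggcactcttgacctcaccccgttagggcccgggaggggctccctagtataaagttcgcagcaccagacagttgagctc

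A few genes past 1.5-fold with hydroxyurea had a ratio at least 2 times further in that direction than without hydroxyurea. Above the 1.5-fold line there were 6 of them and below it another 6. Genes whose difference was weaker with hydroxyurea than without it were not counted here. Next to CXCR4, the higher ones included ULBP2, a stress-induced ligand of the natural killer cell receptor NKG2D, at 104, 104, 90.02 and 196. NCOA7, a protein of oxidative stress resistance, was at 234, 205, 204 and 359.6. In both, only the array with both drugs was high. TYW1 and TYW1B, near-identical genes of tRNA modification whose probes may not tell them apart, and FAM86B2-DT completed the group. Besides FXYD3, the lower ones were GALNT5, a mucin-type glycosyltransferase, at 144, 364, 141 and 139.7, the p53 target TP53I3 at 168, 368, 133 and 144, LINC00173 at 331, 409.8, 258 and 152, the cytochrome oxidase subunit gene COX8A at 1542, 2437, 2072 and 1616 and KRTAP2-3. In FXYD3, GALNT5 and TP53I3 the hydroxyurea array stood above the other three, which lay close together. These genes were picked by their values over all 4 arrays, so their number supports nothing further.

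Genes of DNA replication lay mostly below their level with hydroxyurea alone. Of 17 genes of origin licensing and the replicative helicase, 3 were at least 1.5-fold lower (17.6%, beside 5.41% of all genes) and 0 higher. Their median log2 difference was -0.44, beside 0.00 for all genes. MCM5, a helicase subunit, had 735, 638, 273 and 352 and was 1.81 times lower. MCM2 had 603, 720.4, 265 and 432 and was 1.67 times lower, and MCM4 was 1.54 times lower at 1151, 1397, 664 and 906. The licensing factor CDC6 was at 1209, 1817, 755 and 1826, equal on both arrays with hydroxyurea. Without hydroxyurea, 14 of these 17 genes passed 1.5-fold on the low side (median -0.92). Among 8 genes of the replication fork 0 passed 1.5-fold in either direction and the median was -0.24, while 6 of the 8 were lower without hydroxyurea. The nucleases DNA2 and FEN1 were 1.41 and 1.41 times lower, and the sliding clamp gene PCNA was at 0.90-fold.

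The G1/S list gave 4 lower (23.5%, beside 5.41% of all genes) and 0 higher of 17 genes and a median of -0.35. The lower ones were the transcription factor gene E2F8 at 426, 699.9, 196 and 397 (1.76 times), cyclin E2 (CCNE2) at 333, 1183, 171 and 739 (1.60 times), TFDP1 at 358, 427, 243 and 277 (1.54 times) and the cyclin-dependent kinase gene CDK4 at 1890, 1908, 1452 and 1260 (1.51 times). CCNE2 was far higher on both arrays with hydroxyurea than on the others, and within each such pair the array with MS-275 was the lower one. The retinoblastoma gene RB1 was at 1.26-fold. Mitotic genes lay near their level with hydroxyurea alone. Of 47 genes of mitosis, 1 was higher with MS-275/hydroxyurea than with hydroxyurea (2.13%, beside 8.67% of all genes) and 0 were lower. Their median was -0.17. Without hydroxyurea, 29 of the same 47 genes passed 1.5-fold on the low side and their median was -0.67. The higher one was CENPI, a centromere protein, at 484, 484, 426 and 829 (1.71-fold). KIF14, a kinesin of cytokinesis, was at 491, 368, 318 and 517, and the spindle checkpoint kinase genes TTK and BUB1 were at 1.31-fold and 1.30-fold. On the low side, the transcription factor FOXM1 was at 768, 875, 434 and 662, 1.32 times lower. This difference between backgrounds has 1 array on each side of each ratio and was not tested.

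Few checkpoint and repair genes passed 1.5-fold, beside 8.67% higher and 5.41% lower of all genes. Of 19 checkpoint genes 0 passed it, 11 lay below 0 and the median was -0.02. The kinase gene ATR was at 195, 147, 195 and 178 and its target CHEK1 at 515, 525, 309 and 428, ratios of 1.22 and 0.82. WEE1, the kinase that restrains CDK1, was at 982, 988, 404 and 721 and 1.37 times lower. TIMELESS, a fork protection factor, lay lowest at 1.40 times lower, and RAD17, which loads the checkpoint clamp, lay highest at 1.43-fold. Of 16 genes of homologous recombination and the Fanconi pathway, 1 was lower (6.25%), RAD51AP1 at 181, 291, 73.0 and 182. Of 15 genes of base excision, mismatch and end-joining repair, 1 was lower (6.67%), the uracil glycosylase gene UNG at 657, 615, 264 and 364 (1.69 times). Both shares were near the 5.41% of all genes. Below 0 lay 12 of the 16 and 14 of the 15 genes, and the medians were -0.19 and -0.26. Of 26 listed genes whose products the study names, 16 had a named cluster, and 0 of these 16 passed 1.5-fold. The genes of the subunits of the phosphatase PP2A, which the study also examined, were not in this list. For deoxynucleotide metabolism, 9 genes gave 1 higher and 1 lower. SAMHD1, which degrades deoxynucleotides, was 1.76-fold higher at 442, 581, 800.0 and 1020, and thymidylate synthase (TYMS) was 1.81 times lower at 1523, 1562, 608 and 862.

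Targets of p53 were mostly flat against hydroxyurea alone. Of 20 genes, 0 were higher and 2 were lower (10.0%, beside 5.41% of all genes). Their median was -0.20 beside 0.11 without hydroxyurea. TP53I3, an oxidoreductase of the p53 response, was 2.55 times lower, and the pore-forming apoptosis gene BAX was 1.71 times lower at 259, 441, 213 and 258. Both had their highest intensity on the hydroxyurea array. TP53INP1, which acts in autophagy and cell death, had 279, 758, 755 and 1013 and a ratio of 1.34, and RRM2B, the p53-inducible ribonucleotide reductase subunit, a ratio of 0.96. Of 10 pro-apoptotic genes 0 were higher and 1, BAX, was lower. BCL2L11, the BH3-only protein BIM, was at 135, 254, 213 and 377 (1.48-fold) and PMAIP1, the BH3-only protein NOXA, at 474, 885, 473 and 887 (1.00-fold), so neither passed 1.5-fold. Of 6 anti-apoptotic genes 2 were lower. CFLAR, the caspase-8 inhibitor FLIP, had 125, 159, 57.8 and 77.7 and was 2.05 times lower, and BCL2L1, which encodes BCL-XL, had 1294, 1673, 1020 and 912 and was 1.84 times lower. MCL1 and BIRC2 were at 1.13-fold and 1.14-fold.

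The genes of the drug's own targets, HDAC1, HDAC2 and HDAC3, did not pass 1.5-fold. Of 10 zinc-dependent HDAC genes 0 passed 1.5-fold, and the median was 0.10. HDAC1 had 1567, 1706, 1837 and 1759, HDAC2 had 148, 129, 147 and 144 and HDAC3 had 512, 494, 641 and 674. HDAC3 lay highest of the 10 genes, with a log2 difference of 0.45, and HDAC7 lay lowest at 1.40 times lower. Of 20 genes of co-repressor complexes only CHD3, a remodelling ATPase of the NuRD complex, was lower, at 363, 406, 182 and 237. Among 14 acetyltransferase genes and their partners, KAT2A (GCN5) was 1.70 times lower at 483, 599, 328 and 351 and NCOA1 was 1.74-fold higher at 334, 221, 442 and 385, while CREBBP and EP300 were at 0.77-fold and 0.95-fold. Histone and DNA methylation enzymes gave 4 higher and 3 lower genes of 35, which is 11.4% and 8.57% beside 8.67% and 5.41% of all genes, so few calls that nothing is read from them. Of the 4 higher genes 3 encode lysine demethylases, KDM7A at 169.6, 132, 249.6 and 293 (2.23-fold), KDM5B at 363, 317, 687 and 543 (1.71-fold) and KDM3A at 163, 168, 222 and 269.9 (1.60-fold), and the fourth, KMT2C, encodes a methyltransferase (1.55-fold). The 3 lower genes encode methyltransferases, PRMT1 (1.63 times), PRMT5 (1.52 times) and SUV39H1 (1.51 times).

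PP2A, the phosphatase that removes activating phosphates from checkpoint kinases, was represented by 9 regulators. Of these 1 was higher and 1 lower (11.1% each, beside 8.67% and 5.41% of all genes), and the median was -0.20. These are so few calls that nothing is read from them. SET, an inhibitor of PP2A, had 250.1, 240.3, 159 and 132 and was 1.82 times lower. PABIR1, also an inhibitor, had 205, 165, 339.8 and 306 and was 1.85-fold higher. LCMT1, which methylates the catalytic subunit, was at 435, 466, 549.8 and 661 (1.42-fold), and IGBP1 and ENSA were at 0.97-fold and 0.98-fold. The genes of the scaffold, catalytic and regulatory subunits had no named cluster and were not analysed here.

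**Figure D3:**
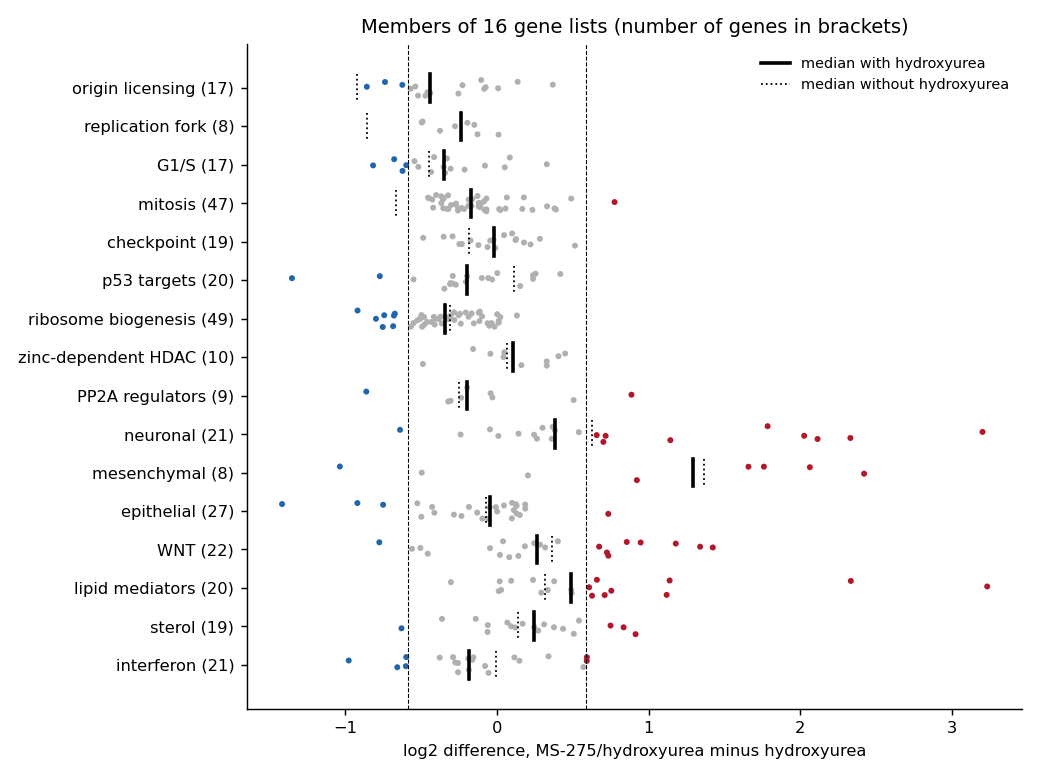
Each point is a gene of 1 of 16 lists, placed by its log2 difference between MS-275/hydroxyurea and hydroxyurea, with the list's median as a solid bar and its median for MS-275 against untreated cells as a dotted bar. The dashed lines mark 1.5-fold, with red points above and blue points below them. Mitosis (medians -0.17 and -0.67) and the replication fork (-0.24 and -0.86) show the widest gaps between the bars, and the mesenchymal list lies farthest to the right with the filter (1.29), but not without it (0.22, beside 0.33 for neuronal genes and 0.43 for lipid mediators).

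Of 56 neuronal genes 38 had a named cluster and 21 passed the filter. Of these 9 were higher and 1 was lower (42.9% and 4.76%, beside 8.67% and 5.41% of all genes), with a median of 0.38. Besides those named above, DNER, a neuronal ligand of Notch, had 103, 132, 424 and 457 and was 3.45-fold higher. The lower one was the neurotrophin gene BDNF, at 158, 150.4, 130.1 and 96.5. Some of the higher genes, such as CNTN1 and NCAM1, were below the filter intensity on both arrays without MS-275 and passed the filter through the arrays on which they were high, so the count and the median do not speak for all neuronal genes. The mesenchymal list had 8 genes past the filter, with 5 higher, 1 lower and a median of 1.29. The size of that median depends on the genes admitted. It was 0.22 over all 16 named genes without the filter, and 0.92 with the filter on the untreated and MS-275 arrays or with the mean of a gene's clusters. CCN2, a matricellular growth factor, had 62.8, 129.6, 185 and 439 and was 3.39-fold higher. THBS1, thrombospondin, had 77.2, 204, 332 and 643 and was 3.16-fold higher, and LOXL2, which cross-links collagen, had 205, 294, 461 and 558 and was 1.90-fold higher. The receptor tyrosine kinase gene AXL was 2.05 times lower at 449.6, 534, 279 and 260.1, and SNAI1 was at 1.15-fold. Epithelial genes were not lower as a group, with 1 higher, 3 lower and a median of -0.05 over 27. The tight junction genes CLDN4 (456, 523, 299 and 311) and MARVELD3 (220.0, 299, 126 and 158) and the keratin gene KRT23 (595, 591, 310.1 and 221) were lower. The desmosomal gene PKP2 was 1.66-fold higher, and the keratin gene KRT18 was at 1.14-fold. Of 9 genes of colon differentiation, the carbonic anhydrase gene CA2 was 1.58-fold higher at 445, 1245, 918 and 1965, the peptidase gene DPP4 was 1.82-fold higher at 123, 136, 165 and 247 and the transcription factor GATA6 was 1.55-fold higher, while FXYD3 and GALNT5 were lower.

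The WNT list had 8 higher and 1 lower of 22 genes (36.4% and 4.55%, beside 8.67% and 5.41% of all genes) and a median of 0.27. NKD1, a feedback inhibitor of WNT signalling, had 168, 268, 398 and 719 and was 2.68-fold higher. BAMBI had 132, 188, 349 and 476 and was 2.53-fold higher. The R-spondin receptor gene LGR4 was 2.27-fold higher, and the WNT receptor genes FZD4 and FZD3 were 1.93-fold and 1.81-fold higher. RNF43, a ubiquitin ligase that removes WNT receptors, was 1.71 times lower at 592, 739.6, 539.5 and 432, and MYC was at 632, 553, 589.6 and 389.8, 1.42 times lower. In the list of cytokines, chemokines and their receptors, which gave 4 higher and 1 lower of 19, IL17RD had 158, 142, 451 and 400.2 (2.82-fold) and LIFR, the receptor of LIF, had 159, 142, 341 and 388 (2.73-fold). The genes of the ligand LIF and of its receptor thus lay on opposite sides. Ephrins, semaphorins and their receptors gave 4 higher and 1 lower of 21 (19.0% and 4.76%). The guidance gene SLIT2 was 3.39-fold higher at 65.7, 73.6, 148 and 249, and EFNB2 was 2.55-fold higher at 314, 306, 691 and 779. SLIT2 was below the filter intensity on both arrays without MS-275 and entered the count through the arrays on which it was high.

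Growth factor and stress signalling was mixed, in lists to be read beside the 8.67% higher and 5.41% lower of all genes. Of 7 genes of EGF receptors, ligands and regulators, EREG and the feedback inhibitor ERRFI1 (3350, 3254, 2234 and 2152) were lower, and EGFR itself was at 733, 603, 762 and 689 (1.14-fold). Among 22 targets and phosphatases of the MAP kinase pathway, DUSP10, which inactivates JNK and p38, was 3.31-fold higher at 90.6, 85.8, 217 and 284, EGR1 was 1.57-fold higher, and FOSL1 was lower. The AP-1 subunit gene FOS was 2.20-fold higher at 103, 101, 191 and 223, opposite to FOSL1. Of 14 genes of NF-κB signalling, the subunit gene NFKB1 had 419.6, 345, 157 and 139 and was 2.49 times lower, whereas RELA and REL were at 1.03-fold and 1.20-fold. Interferon-responsive genes gave 2 higher and 4 lower of 21 (9.52% and 19.0%) and a median of -0.19. Their share of higher genes was near that of all genes. IFI35 was lowest at 246, 297, 136 and 151 (1.97 times), and HERC5 and TRIM21, both at 1.51-fold, were just past the line. KEAP1, the adaptor that marks NRF2 for degradation, had 530.5, 660.4, 205 and 289 and was 2.29 times lower, with NFE2L2, the gene of NRF2, at 0.83-fold. Of the stress response of the endoplasmic reticulum and of amino acid shortage, ATF5 was 2.69 times lower at 219, 338, 139.5 and 126. The sensor gene ERN1 was 1.71-fold higher, in a list of 21 with 2 higher and 3 lower (9.52% and 14.3%).

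Lipid genes were on the high side. Of 20 genes of lipid mediators, which make or sense eicosanoids, lysophosphatidic acid and sphingosine-1-phosphate, 9 were higher and 0 lower, with a median of 0.49, and 19 of the 20 lay above 0. With ENPP2 and SGPP2 already described, ALOX5, the 5-lipoxygenase of leukotriene synthesis, had 85.5, 86.0, 178 and 189 and was 2.20-fold higher. The cyclooxygenase genes PTGS1 and PTGS2 had 88.9, 129, 159.7 and 279 and 63.6, 133, 111 and 224, and were 2.17-fold and 1.69-fold higher. Of these genes ENPP2, SGPP2 and ALOX5 were below the filter intensity on both arrays without MS-275. They passed the filter through the arrays on which they were high, so the count and the median do not speak for all lipid mediator genes. Without the filter the median was 0.43 over 26 genes. Sterol genes were brighter and gave 3 higher and 1 lower of 19, with a median of 0.25. These are 15.8% and 5.26%, beside 8.67% and 5.41% of all genes. INSIG1, which retains the sterol sensor in the endoplasmic reticulum, had 575, 784, 894 and 1477 and was 1.88-fold higher, the sterol carrier gene STARD4 had 255, 329.9, 413 and 589 and was 1.78-fold higher, and INSIG2 was 1.68-fold higher. ACAT2 was 1.55 times lower. Of 28 genes of fatty acid metabolism, 3 were higher and 1 lower (10.7% and 3.57%), near the shares of all genes. ACSL1 was 1.90-fold higher at 197, 196, 308 and 372 and ACSL5 was 2.38 times lower at 1455, 1214, 398 and 511. Members of 1 enzyme family, the acyl-CoA synthetases, thus lay on opposite sides.

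Genes of ribosome production lay mostly below their level with hydroxyurea alone. Of 49 genes of ribosome biogenesis, 7 were lower (14.3%, beside 5.41% of all genes) and 0 higher. Their median was -0.34, close to the -0.31 without hydroxyurea. The exosome subunit genes EXOSC8 and EXOSC5 had 456, 456, 189 and 241 and 564, 505, 388 and 290.4, and were 1.89 and 1.74 times lower, and NIP7, a factor of the large subunit, had 1534, 1252, 819 and 743 and was 1.69 times lower. Only 5 of the 49 genes lay above 0. The proteins of the cytosolic ribosome themselves gave 1 higher and 0 lower of 48 and a median of -0.06, and those of the mitochondrial ribosome 0 higher and 3 lower of 70 and a median of -0.13. Of 77 genes of splicing and RNA binding, 2 were higher and 3 lower (2.60% and 3.90%), with the splicing factor gene U2AF2 at 1646, 1714, 911 and 923 (1.86 times lower). Zinc finger genes, the largest family here, gave 20 higher (8.23%) and 6 lower (2.47%) of 243, and a median of 0.03. The share of higher zinc finger genes was thus near the 8.67% of all genes.

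Other lists held few genes past 1.5-fold, and many of their shares lay near the 8.67% higher and 5.41% lower of all genes. Of 29 genes of autophagy and lysosomes 3 were higher and 1 lower (10.3% and 3.45%), with the lysosomal sialidase gene NEU1 at 141, 253, 305 and 446 and the autophagy gene ATG12 at 467, 436, 263 and 252. Of 19 genes of hypoxia and glycolysis 3 were higher and 0 lower, among them EPAS1, which encodes the hypoxia-inducible factor HIF-2α, at 295, 469.6, 551 and 849.7. Of 16 heat shock genes and chaperones 2 were higher and 0 lower, the secreted chaperone gene CLU at 328, 434, 629.7 and 733 and HSPA4L at 694, 1109, 1141 and 1701. The Notch list had 1 higher and 1 lower of 18, the ligand genes DLL4 at 73.4, 138, 157 and 265 and JAG2 at 325, 455, 269.5 and 299.6. The TGF-β list had 2 higher and 1 lower of 15, with the latent TGF-β binding protein genes LTBP1 at 98.8, 131, 213 and 261 and LTBP3 at 455, 482, 321 and 287 on opposite sides. Antigen presentation and natural killer ligands gave 1 higher, ULBP2, and 1 lower of 8, the peptide-loading gene TAPBP at 840.0, 796, 502 and 432. Of 16 tRNA synthetase genes 0 passed 1.5-fold, and of 21 genes of the respiratory chain 1 was lower, COX8A.

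Some families were noticed only after the values were seen. All but the S100 genes came from a scan of 148 symbol families with at least 7 genes past the filter. The families are given as values, and of all genes 8.67% were higher and 5.41% lower. All 12 genes of intraflagellar transport, which builds cilia, lay above 0, with 3 higher and a median of 0.47, among them IFT80 at 269, 266, 456 and 451. The 8 exocyst subunits, which tether secretory vesicles, also all lay above 0, with 1 higher, EXOC6B, and a median of 0.37. Syntaxins, which fuse vesicles, had 4 higher and 0 lower of 13, led by STX7 at 232, 234, 442 and 436 and STX11 at 84.3, 137, 158 and 251. Tetraspanins had 4 higher and 0 lower of 13, with TSPAN13 at 349.9, 703, 1347 and 1733 and TSPAN7 at 64.5, 74.3, 200.4 and 176. TSPAN7 was below the filter intensity on both arrays without MS-275 and passed through the arrays on which it was high. The tetraspanin median was 0.32, and 0.04 over the 7 genes left by the filter at the 75th percentile. The S100 calcium-binding proteins had 3 lower and 0 higher of 7, with a median of -0.50 and S100A3 lowest at 106, 153, 62.8 and 72.9.

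HOXB genes stood out among the lower genes, and this family too was listed after its values were seen. HOX genes encode the transcription factors that set position along the body axis, and the HOXB genes lie side by side on chromosome 17 (GRCh38.p14, from 48528526 for HOXB1 to 48728750 for HOXB13). Of 10 named HOXB genes 8 passed the filter, 6 of them were lower and 0 higher, and the median was -1.02. Of all genes 5.41% were lower and 8.67% higher. Over all 10 named genes without the filter the median was -0.82, and with an offset of 32 before log2 it was -0.91. HOXB8 had intensities of 269, 304, 129 and 99.5 and was 3.05 times lower with MS-275/hydroxyurea than with hydroxyurea. HOXB5 had 339.6, 602, 199 and 209.9 and was 2.87 times lower. HOXB6 had 282, 409, 150.3 and 159 and was 2.57 times lower. In all 3 genes both arrays with MS-275 lay below both arrays without it. HOXB9 was 2.17 times lower at 488, 576, 255 and 266, HOXB7 was 1.91 times lower at 172, 237, 110.1 and 124 and HOXB3 was 1.63 times lower at 191, 208, 132 and 127. HOXB4 was 1.40 times lower and did not pass 1.5-fold. HOXB13, which lies apart from the others at the end of the cluster, was at 114, 124, 134 and 158, 1.27-fold, and HOXB1 and HOXB2 were below the filter. Of the other HOX genes 5 passed the filter, with 1 lower, HOXC9 at 179, 199.6, 123 and 133, and a median of -0.14.

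**Figure D4:**
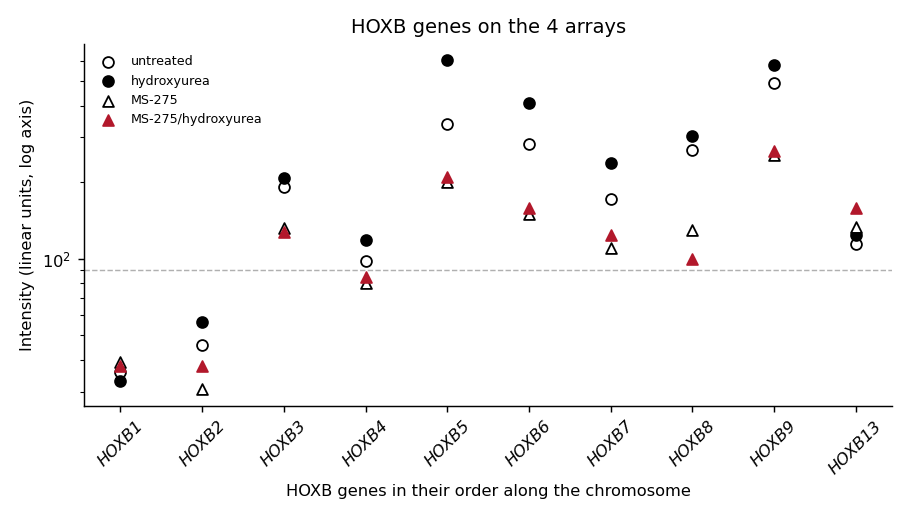
Intensity on a log axis of the 10 HOXB genes on the 4 arrays, in their order along the chromosome, with the filter intensity of 90.5 as a dashed line. From HOXB3 to HOXB9 both triangles (MS-275 present) lie below both circles, and in HOXB13 they lie above.

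The array also holds clusters for microRNA loci, which measure RNA from the locus and not the mature microRNA. Of 188 such loci past the filter, 9 were higher and 10 lower, with a median of -0.10. Of all genes 8.67% were higher and 5.41% lower, and the share of lower loci was near the latter. The loci shown were chosen after their values were seen and do not stand for the 188. MIR221 and MIR222 lie next to each other on chromosome X inside the host gene MIR222HG, and their 3p products share a seed, bases 2 to 8, given in capitals. MIR221 had 705, 772, 488 and 335 and was 2.31 times lower, and MIR222 had 168, 133, 83.6 and 68.8 and was 1.93 times lower. MIR31, on chromosome 9 inside MIR31HG, had 412, 259.7, 242 and 136 and was 1.90 times lower, while the cluster of MIR31HG had 123, 122, 147 and 101 and did not pass 1.5-fold. MIR196B, in the HOXA cluster on chromosome 7, had 253, 281, 165 and 165 and was 1.70 times lower. MIR4525, on chromosome 17 inside RAB40B, had 594, 576, 1395 and 2495 and was 4.33-fold higher, the highest of the microRNA loci. Where a locus lies inside another gene, its RNA and that of the host cannot be told apart.
hsa-miR-221-3p: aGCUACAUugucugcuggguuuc
hsa-miR-222-3p: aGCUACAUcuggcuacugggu
hsa-miR-31-5p: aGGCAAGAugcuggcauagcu
hsa-miR-196b-5p: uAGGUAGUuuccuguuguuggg
hsa-miR-4525: gGGGGGAUgugcaugcugguu

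The higher genes were longer than the lower ones. Genomic length had a median of 61337 bp for the 663 higher genes and 16476 bp for the 414 lower genes, beside 28179 bp for all 7649. Among 7096 protein-coding genes split by length into 5 bins, the share of higher genes went from 3.66% in the shortest to 16.9% in the longest bin, and that of lower genes from 8.38% to 2.68%. On the untreated array the median intensity was 145 for the higher, 299 for the lower and 237 for all genes. These values are partly set by the filter, since 139 of the 663 higher genes but 1 of the 414 lower genes were below its intensity on that array and passed it through other arrays. With the filter on the untreated array alone, tried after the data were seen, 528 of 7520 genes were higher and 436 lower, and the medians were 188 and 278 beside 242 for all. Over 5 bins of intensity on the untreated array, the share of higher genes went from 18.4% in the dimmest to 3.40% in the brightest with the first filter, and from 10.4% to 3.46% with the other. With it the median lengths were 63773 bp for the higher and 16726 bp for the lower genes. The length pattern was therefore also taken within the brighter and the dimmer genes, a split added after the data were seen. In the brighter genes the share of higher ones went from 1.27% to 9.30% with length and that of lower ones from 12.3% to 3.38%, and in the dimmer genes from 5.35% to 25.6% and from 4.93% to 2.11%. The direction was the same in both. By chromosome, also looked at afterwards, the share of higher genes was lowest on chromosome 19 (3.96%, with 8.29% lower) and highest on chromosome 4 (14.8%, with 4.80% lower).

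**Figure D5:**
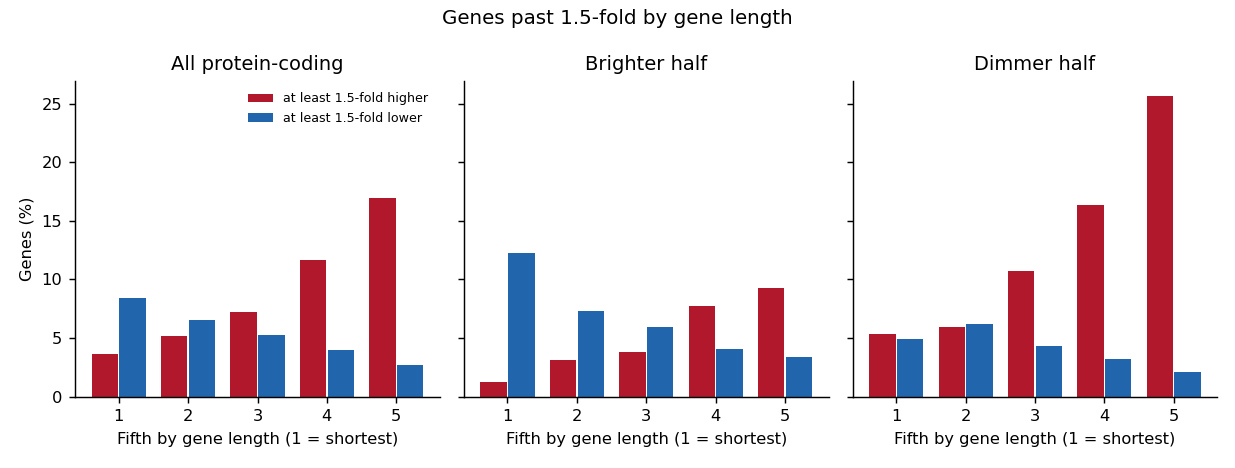
Percentage of protein-coding genes at least 1.5-fold higher (red) and lower (blue) with MS-275/hydroxyurea than with hydroxyurea, in 5 bins of gene length from the shortest (1) to the longest (5), for all 7096 genes and for those brighter and dimmer than the median on the untreated array. In each panel red bars are taller in the longest bin than in the shortest and blue bars are shorter, with 25.6% of the longest dim genes higher.

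Promoter sequences, 300 bases around the RefSeq start, were found for 6108 of the 7649 genes, for 523 of the higher and 322 of the lower ones. Of 15 motifs searched on both strands, the CCAAT box was found in 43.6% of the promoters of higher genes, 28.0% of those of lower genes and 36.9% of all. The GC box was found in 77.6%, 67.1% and 73.7%, and its longer form GGGGCGGG, whose matches are also GC box matches, in 49.7%, 33.5% and 41.3%. The E-box CACGTG went the other way, with 7.65%, 13.7% and 10.2%. The ETS site CCGGAAG was less frequent in both groups than in all promoters, at 11.5%, 13.0% and 20.2%. For the E2F site, searched as TTTGGCGC, TTTCCCGC, TTTCGCGC and TTTGCCGC, the shares were 4.21%, 5.59% and 5.78%. For the AP-1 site TGACTCA they were 3.06%, 4.66% and 2.70%, and for the cAMP response element TGACGTCA 3.06%, 1.55% and 3.49%. For the TATA box TATAAA they were 5.93%, 4.04% and 4.68%, and for the TEAD site GGAATG 9.56%, 12.4% and 10.2%. The NRF1 site was found in 1.53%, 1.86% and 2.60%, and the NF-κB site in 0.38%, 0.31% and 0.34%. The CHR element, as TTTGAA or TTCGAA, was found in 9.75%, 9.63% and 11.1%, CAGGTG in 18.5%, 19.6% and 18.5%, and CATGCC in 7.65%, 8.39% and 8.17%. The median G+C share was 67.7%, 64.8% and 66.0%. A match is a run of letters, not a site in use, and single promoters need not follow the shares, as with the CCAAT boxes of EREG.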

How the data were processed

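RNA of HCT116 cells was hybridised to 4 GeneChip Human Gene 2.0 ST arrays, 1 for each treatment. By the labels the authors used RMA, a method that subtracts background, brings the arrays to a common scale and combines probes, and they deposited the intensity of each of 53617 transcript clusters on a linear scale, from 1.92 to 17815. Which RMA software was run is not given in the sources used here. Per the platform's probe table there was 1 gene symbol for 16098 clusters, several for 0 and none for 37519, which are unnamed here, so that list members without a named cluster were not analysed here. All 16098 matched a current gene record (RefSeq, GRCh38.p14) by Entrez identifier.

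Log2 ratios of intensities, with no pseudocount, were taken per gene from its brightest cluster (779 of 14884 genes had several) in Python 3.11.15 with numpy 2.4.6, pandas 2.3.3 and matplotlib 3.10.9, and tested on simulated data. Sequences came from RefSeq tables. Members, the 65 gene lists and the 1.5-fold rule were chosen with earlier results of these data known, and 10 further lists after the values of this comparison were seen. The genes named are the 15 highest and 15 lowest (without small RNAs, uncharacterised loci, antisense genes, open reading frames, olfactory receptors, keratin-associated proteins and pseudogenes), up to 6 members of a list with the largest differences, members of study interest nearest to no change, and genes the study names. Others were chosen after their values were seen. With 4 arrays, their number sets the limit on precision.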

Additional observations from a re-analysis of the deposited data

How the results depend on the processing

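The counts of 663 higher and 414 lower genes depended on which genes entered and on the fold. Without the filter on dim genes they were 1107 and 752, and with the filter raised to the 75th percentile (intensity 238.5) 270 and 201. With 2-fold in place of 1.5-fold they were 171 and 71, and with the same direction also required without hydroxyurea 371 and 223. The other settings kept both counts within 1.5 times. These were a filter on the untreated and MS-275 arrays only (657 and 407), the mean of a gene's clusters (633 and 398), centring on the array median (670 and 409), renewed quantile normalization (671 and 412) and an offset of 32 before log2 (499 and 285). Of 448 list medians under these settings 423 stayed within 0.1 of their value and 25 moved further. The sign differed in 21, and in 20 of them at least one of the values was within 0.1 of 0. The remaining one was the EGF family, 0.10 over 7 genes and -0.60 over the 3 genes left by the filter at the 75th percentile. Without the filter the mesenchymal median went from 1.29 to 0.22, and that of intestinal differentiation from 0.22 to -0.08. None of the 30 highest and lowest genes changed sign, and 27 differences moved by over 0.1 with the offset. No paired analysis was possible because the conditions share only 1 replicate number. Dim genes limit the sizes of the folds, and with 1 array a side no value separates the drug from the array.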
